A study of Mus musculus with 14 samples.

Results

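Dgat1, Hilpda and G0s2 are 3 genes that set how much triglyceride a cell stores. They were listed by name as 1 gene of triglyceride synthesis and 2 inhibitors of its breakdown, out of 10210 genes in a table of natural killer (NK) cell counts, and all 3 were found there and in a second table of stromal cells. The 3 were selected on their measured difference between tumour NK cells and spleen NK cells in these same libraries, so their levels and fold changes are given as a description with no test.

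Cells keep spare fatty acids as triglyceride in lipid droplets, oil drops that bud from the endoplasmic reticulum under a coat of proteins. DGAT1 adds the last fatty acid to diacylglycerol and so completes a triglyceride. The lipase ATGL, encoded by Pnpla2, removes the first fatty acid when the store is used, with ABHD5 (CGI-58) as its activator. G0S2 and HILPDA are small proteins that both bind ATGL and inhibit it, and HILPDA is a known target of the hypoxia-inducible factors HIF-1 and HIF-2.

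The libraries were made from BALB/c female mice aged 8 weeks, by a method that sequences the 3′ end of polyadenylated RNA. Tumours came from 100000 4T1-GFP cells, a mouse line of triple-negative mammary carcinoma carrying green fluorescent protein, placed in the mammary fat pad. NK cells sorted as GFP-EPCAM-CD45+CD3-CD31-CD14-NKp46+ came from spleens of mice without a tumour (healthy spleen, 3 libraries), from spleens of mice with a 4T1-GFP tumour (tumour-bearing spleen, 4 libraries) and from the tumours (tumour NK, 4 libraries). The 3 further libraries came from tumour cells of the stroma sorted as EPCAM-GFP-CD45-CD31-PDPN- and labelled sCAF, a class of cancer-associated fibroblast. Tumours were minced and digested by enzymes at 37 °C while spleens were crushed and their red cells lysed on ice, so tissue and handling cannot be told apart in any tumour against spleen comparison. The model is 1 carcinoma line in 1 mouse strain, and the labels do not say how many mice gave each library.

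Total counts ran from 559688 to 1966963 in the NK libraries and from 1318067 to 2230475 in the sCAF libraries. Levels are CPM, counts scaled to a common library size, on library sizes scaled by TMM (trimmed mean of M-values) for NK cells and on raw totals for sCAF. NK markers such as Ncr1 and Nkg7 were listed for 11 of 12 genes, at a summed 20196 to 25149 CPM in tumour NK and 27932 to 31133 CPM in the spleens of tumour-bearing mice. Spleen libraries fell into 2 sets on the second principal component, with tumour-bearing replicates 1 and 2 and healthy replicate 1 on one side, and the labels name no cause.

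Dgat1 (ENSMUSG00000022555.12) lies on chr15:76502015-76511953 of mm10, minus strand, with 17 exons in its reference transcript. Hilpda (ENSMUSG00000043421.8) is a short gene of 2 exons on chr6:29272488-29275446, plus strand. G0s2 (ENSMUSG00000009633.3) has 2 exons on chr1:193272161-193273217, minus strand, and lies within the span of Lamb3 on the opposite strand, a gene not among those in the NK table. Whether the authors' counting used strand is not given in the sources used here.

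Because Hilpda and G0s2 differ in direction while encoding inhibitors of the same lipase, the 250 bases upstream of their RefSeq start sites (GRCm38.p6) are shown. Capitals mark ACGTG or GCGTG, the core letters that hypoxia-inducible factors bind, searched on both strands. The Hilpda window is chr6:29272376-29272625, plus strand, and the G0s2 window is chr1:193273189-193273438, minus strand, both written along the gene.
Hilpda: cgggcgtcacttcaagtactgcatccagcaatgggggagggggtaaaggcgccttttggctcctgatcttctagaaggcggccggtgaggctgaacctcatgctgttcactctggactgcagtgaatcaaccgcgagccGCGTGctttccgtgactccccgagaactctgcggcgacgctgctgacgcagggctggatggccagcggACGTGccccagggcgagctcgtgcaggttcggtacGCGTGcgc
G0s2: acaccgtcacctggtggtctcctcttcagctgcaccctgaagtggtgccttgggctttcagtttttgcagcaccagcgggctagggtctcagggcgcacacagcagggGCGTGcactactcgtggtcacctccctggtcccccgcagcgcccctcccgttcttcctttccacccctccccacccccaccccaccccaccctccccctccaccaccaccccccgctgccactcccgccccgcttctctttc
The Hilpda window holds 3 matches, with first bases at -111, -43 and -8 from the start site, where -1 is the base just before it. The G0s2 window holds 1 match, at -142. That match lies outside the G0s2 gene as placed above, though the last bases of the window lie within it. The Hilpda window shown belongs to a start site inside the gene as placed above. Part of it is thus annotated gene sequence, and all 3 Hilpda matches lie in that part. The window directly upstream of that gene's first base, chr6:29272238-29272487, belongs to another RefSeq start site and has 0 matches. Of all 32851 promoter windows of this length, 38.6% hold at least 1 match and 6.58% hold 3 or more. The Hilpda and G0s2 windows shown are 63.6% and 67.2% G or C, beside a median of 52.4% over all windows. Both motifs hold a CG, and the shares among windows of like content were not counted. A match is a run of letters and not a measured binding site.

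Dgat1 was far higher in NK cells from tumours than in NK cells from either spleen. It stood at 1548, 1890, 2006 and 1848 CPM in the 4 tumour NK libraries, a mean of 1823 ± 195 (SD, n = 4). In tumour-bearing spleen it stood at 89.9, 94.9, 65.9 and 58.6 CPM, a mean of 77.3 ± 17.8 (SD, n = 4), and in healthy spleen at 107.9, 84.0 and 86.7 CPM, a mean of 92.8 ± 13.1 (SD, n = 3). Every tumour library was far above every spleen library, and the lowest tumour value was 16.3 times the highest of tumour-bearing spleen. The fitted difference from tumour-bearing spleen was 4.56 on the log2 scale (SE 0.18), or 23.5-fold, and from healthy spleen 4.31 (SE 0.21), or 19.9-fold. In these sorted but bulk libraries, more RNA per cell and more cells that express a gene cannot be told apart.

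Hilpda was higher in the same libraries. Its levels were 442.7, 346.3, 334.3 and 456.4 CPM in tumour NK, a mean of 394.9 ± 63.5 (SD, n = 4). Tumour-bearing spleen gave 27.4, 32.4, 26.3 and 18.8 CPM, a mean of 26.2 ± 5.61 (SD, n = 4), and healthy spleen gave 38.5, 21.4 and 21.5 CPM, a mean of 27.1 ± 9.87 (SD, n = 3). The groups did not overlap, and the lowest tumour library was 10.3 times the highest of tumour-bearing spleen. The difference was 3.90 on the log2 scale against tumour-bearing spleen (SE 0.19, 14.9-fold) and 3.96 against healthy spleen (SE 0.22, 15.5-fold).

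G0s2, the other inhibitor of ATGL, went the opposite way. It was read at 97.1, 131.1 and 142.8 CPM in healthy spleen, a mean of 123.7 ± 23.7 (SD, n = 3), and at 77.0, 83.7, 100.9 and 102.7 CPM in tumour-bearing spleen, a mean of 91.1 ± 12.7 (SD, n = 4). The 4 tumour libraries held 10.7, 15.9, 7.82 and 9.51 CPM, a mean of 10.98 ± 3.51 (SD, n = 4), from 13, 11, 13 and 10 counts. Every tumour library was below every spleen library, and the lowest tumour-bearing spleen value was 4.83 times the highest tumour value. The difference was -3.13 on the log2 scale against tumour-bearing spleen (SE 0.22, 8.75-fold lower) and -3.59 against healthy spleen (SE 0.22, 12.01-fold lower). With so few counts in each tumour library, its level there has a larger counting error than those of Dgat1 and Hilpda. Some genes named below had similarly few, such as Cpt2 with 6 to 8 counts and Lclat1 with 3 to 19 in a tumour library.

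**Figure D1:**
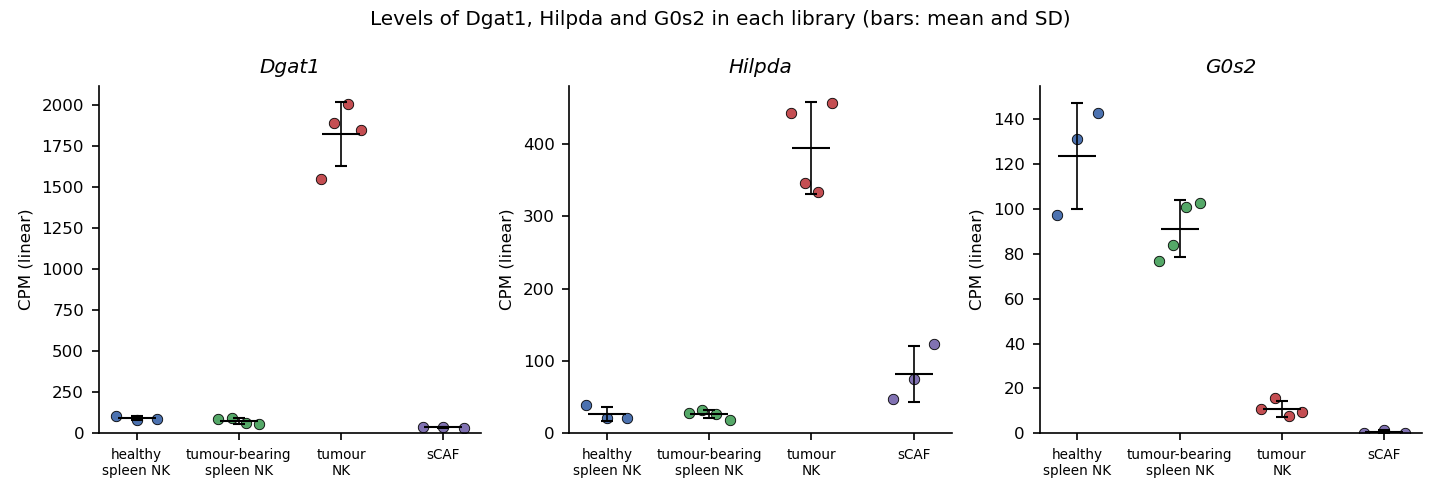
Levels of Dgat1, Hilpda and G0s2 in CPM (linear axes, from 0) for each library of healthy spleen NK, tumour-bearing spleen NK, tumour NK and sCAF, as points with the mean and SD as bars. Tumour NK libraries hold 1548 to 2006 CPM of Dgat1 and 334.3 to 456.4 CPM of Hilpda, far above both spleens, while their G0s2 lies at 7.82 to 15.9 CPM, below both spleens.

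Among 8471 genes tested, Dgat1 ranked 30 and Hilpda 57 from the highest fold change against tumour-bearing spleen, and G0s2 ranked 6 from the lowest. Of all genes tested, 15.8% were called higher in tumour NK than in tumour-bearing spleen NK and 13.2% lower, by edgeR's quasi-likelihood test at a Benjamini-Hochberg adjusted p under 0.05. Against healthy spleen the shares were 16.5% higher and 14% lower. Values of the groups did not overlap for 29.7% of genes in the first comparison and 34.8% in the second. All 3 genes passed these marks in both comparisons, which share the tumour libraries, and since the genes were chosen for that pattern, nothing is read from the count.

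Between the spleens the 3 genes overlapped. The difference of tumour-bearing minus healthy spleen was -0.25 on the log2 scale for Dgat1 (SE 0.19), 0.06 for Hilpda (SE 0.24) and -0.46 for G0s2 (SE 0.17). None of the 3 passed the threshold, where 1.23% of all genes were called higher and 0.354% lower, and none belonged to the 12.2% of genes whose groups did not overlap. The order of mean G0s2 levels was thus healthy spleen, tumour-bearing spleen and tumour NK, of which the first 2 overlapped and were not called apart. The order of Dgat1 and Hilpda had tumour NK first, with the spleens overlapping.

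Within each of the 2 sets of spleen libraries the values lay closer together. In the first set, Dgat1 was 89.9 and 94.9 CPM in tumour-bearing spleen and 107.9 CPM in the 1 healthy library. In the second set it was 65.9 and 58.6 CPM against 84.0 and 86.7 CPM, so every tumour-bearing value was below every healthy value of its own set. G0s2 showed the same arrangement, at 77.0 and 83.7 against 97.1 CPM and at 100.9 and 102.7 against 131.1 and 142.8 CPM. Hilpda did not, since its second set overlapped, at 26.3 and 18.8 against 21.4 and 21.5 CPM. The sets were read from these same libraries, and the share of all genes with this arrangement was not counted, so nothing is read from it. Dgat1 was higher and G0s2 lower in the first set than in the second, within both spleen groups. With the set as a block, the differences were -0.36 on the log2 scale for Dgat1 (SE 0.13) and -0.37 for G0s2 (SE 0.12), still not past the threshold. Mean Hilpda in tumour-bearing spleen was 29.9 CPM in the first set and 22.5 CPM in the second, and it was 38.5 CPM in healthy replicate 1 against 21.4 CPM in the others. Against tumour NK, using only tumour-bearing replicates 1 and 2 or only replicates 3 and 4 left Dgat1 between 4.30 and 4.83, Hilpda between 3.71 and 4.07 and G0s2 between -3.33 and -2.95 on the log2 scale.

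The make-up of the counts of ATGL inhibitors differed between tumour and spleen. Counts of the 3′ end are not scaled by gene length, so the share of Hilpda in the summed Hilpda and G0s2 counts compares libraries and not amounts of protein. That share was 97.6%, 95.6%, 97.7% and 98.0% in tumour NK. It was 26.3%, 27.9%, 20.6% and 15.5% in tumour-bearing spleen and 28.4%, 14.0% and 13.1% in healthy spleen. The widest exact 95% binomial interval in tumour NK, from 250 counts in replicate 2, was 92.3% to 97.8%, and the highest upper bound in any spleen library was 39.0%. These intervals cover counting error alone, and both genes were chosen for their gap between tumour and spleen, so the separation is a description. The sum of both inhibitors was 342.1 to 465.9 CPM in tumour NK, 104.4 to 127.1 CPM in tumour-bearing spleen and 135.6 to 164.2 CPM in healthy spleen, higher in every tumour library than in every spleen library.

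Pnpla2 itself, the lipase that both proteins inhibit, stood at 212.3, 279.7, 295.8 and 248.2 CPM in tumour NK and at 142.5, 180.3, 227.5 and 253.9 CPM in tumour-bearing spleen. The groups overlapped, and the difference of 0.36 on the log2 scale (SE 0.17) did not pass the test (edgeR adjusted p = 0.111). Counts of both inhibitors per count of Pnpla2 were 1.16 to 2.14 in tumour NK, 0.479 to 0.733 in tumour-bearing spleen and 0.636 to 0.806 in healthy spleen. Tumour NK replicates 1 and 4 had the higher ratios, 2.14 and 1.88, and the other pair had 1.30 and 1.16. Counts of Dgat1 per count of Pnpla2 were 6.76 to 7.45 in tumour NK, against 0.231 to 0.631 in tumour-bearing spleen and 0.35 to 0.598 in healthy spleen. Such ratios do not depend on library scaling, and tumour and spleen libraries did not overlap in any of them. Since Dgat1, Hilpda and G0s2 were chosen for their gap between tumour and spleen, this separation restates that gap and is no further result.

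**Figure D2:**
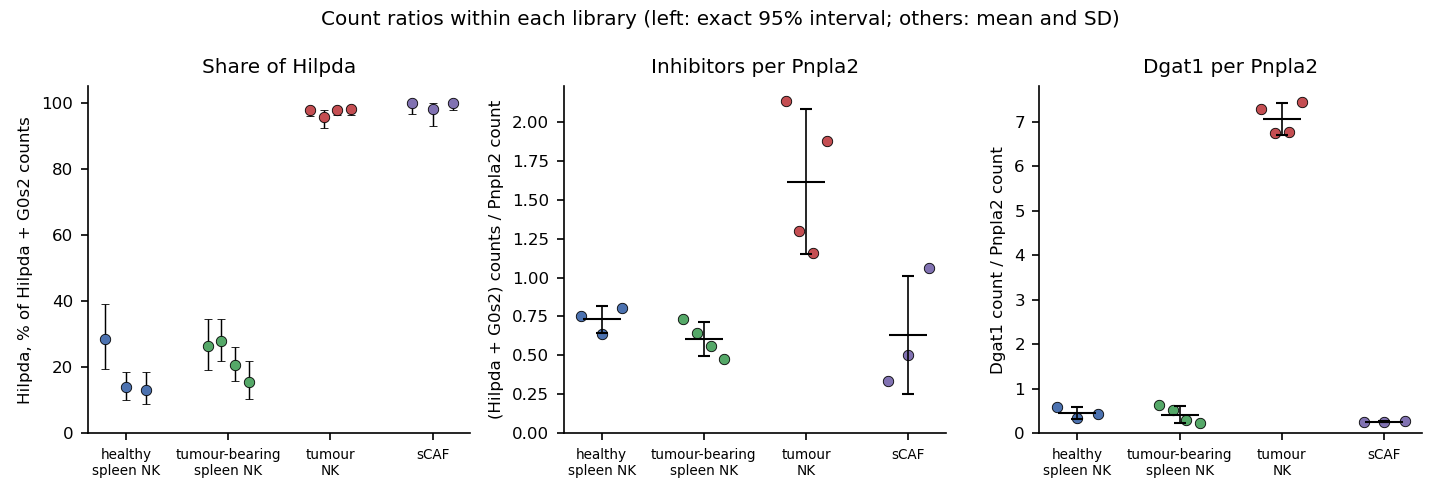
Ratios of counts within each library for healthy spleen NK, tumour-bearing spleen NK, tumour NK and sCAF: Hilpda as a percentage of Hilpda plus G0s2 counts with exact 95% intervals (left), and both inhibitors (middle) or Dgat1 (right) per count of Pnpla2 with mean and SD. Tumour NK libraries sit at 95.6% to 98.0% for the share of Hilpda and at 6.76 to 7.45 for Dgat1 per Pnpla2, above every spleen library.

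Other genes of triglyceride synthesis were called in part. A list of 21 genes of triglyceride synthesis had 12 in the NK table and 9 tested, of which 3 rose (33.3%) and 1 fell (11.1%) against tumour-bearing spleen, beside 15.8% and 13.2% of all genes, with a median difference of 0.20 on the log2 scale beside 0.0014 over all genes. Against healthy spleen 1 rose, Gpat4, and 1 fell. Gpat4, an acyltransferase of the first step, rose from 63.5 ± 15.2 to 88.9 ± 10.3 CPM (SD, n = 4 each; log2 0.50, SE 0.17, edgeR adjusted p = 0.0311). Lpin2, a phosphatase that makes diacylglycerol, rose from 53.1 to 80.0 CPM (log2 0.59, edgeR adjusted p = 0.0411), and Lpin1, its relative, had 0.28 (edgeR adjusted p = 0.547). Lclat1, an acyltransferase of lysophospholipids, rose by 1.10 (SE 0.38, edgeR adjusted p = 0.0373), and Plpp2, a lipid phosphate phosphatase, fell by 0.63 on the log2 scale (edgeR adjusted p = 0.0413). The calls of Gpat4 and Lpin2 were lost under 7 and 10 of 17 alternative settings. Against healthy spleen Gpat4 had 0.54 (edgeR adjusted p = 0.0347), while Lpin2, Lclat1 and Plpp2 had 0.40, 1.05 and 0.03 and did not pass the test (edgeR adjusted p = 0.213, 0.0749 and 0.958). Dgat2, the other enzyme of the last step, and Gpat3 are not among the genes in the NK table, so neither was analysed in NK cells.

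Of 25 genes of the droplet coat and of droplet assembly, 11 were tested. Against tumour-bearing spleen 2 were higher (18.2%) and 1 lower (9.09%), beside 15.8% and 13.2% of all genes, with a median of 0.04. Against healthy spleen 4 were higher (36.4%, beside 16.5% of all genes), Pcyt1a, Acsl3, Plin3 and Vmp1, and 1 lower, with a median of -0.03. Pcyt1a, which makes the phosphatidylcholine that covers a growing droplet, rose from 21.1 ± 7.66 to 74.2 ± 11.5 CPM (SD, n = 4 each; log2 1.80, SE 0.22, edgeR adjusted p = 4.31e-06). Its 4 tumour values of 76.2, 84.0, 57.7 and 78.9 CPM were all above the spleen values of 12.9 to 29.6 CPM. Acsl3, an acyl-CoA synthetase of nascent droplets, rose by 1.65 (SE 0.40, edgeR adjusted p = 0.00442), from 5.76 to 18.9 CPM.

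Plin2, the coat protein commonly used as a marker of lipid droplets, fell. It was 28.2, 31.8, 37.1 and 39.1 CPM in tumour-bearing spleen and 17.2, 21.7, 18.6 and 20.0 CPM in tumour NK, with no overlap. The difference was -0.83 on the log2 scale (SE 0.21, edgeR adjusted p = 0.00485), and with tumour-bearing replicates 1 and 2 alone it was -0.65 and was not called. Against healthy spleen, at 16.95, 27.3 and 24.8 CPM, the difference of -0.32 did not pass the test (edgeR adjusted p = 0.326). Plin3, another coat protein, had 0.01 against tumour-bearing spleen (edgeR adjusted p = 0.981), but it rose by 1.14 against healthy spleen (SE 0.38, edgeR adjusted p = 0.0266), where it had 2 to 9 counts a library. Bscl2, the seipin gene of droplet budding, had -0.41 (edgeR adjusted p = 0.0569). Fitm2, a gene of droplet budding, is not among the genes in the NK table.

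Of 15 genes of lipolysis, 10 were tested. Against tumour-bearing spleen 1 was higher and 1 lower (10% each, beside 15.8% and 13.2% of all genes), with a median of 0.06. Against healthy spleen 0 were called, with a median of -0.22. Abhd5, the activator of ATGL, had 0.51 (SE 0.41, edgeR adjusted p = 0.367), and Lipe, the hormone-sensitive lipase, had 0.36 (SE 0.33, edgeR adjusted p = 0.431), from 4 to 30 counts in each library. Nceh1, a neutral cholesterol ester hydrolase, rose by 0.86 (edgeR adjusted p = 0.0364), and Pnpla6, a lysophospholipase, fell by 0.55 on the log2 scale (edgeR adjusted p = 0.0205). Mgll, the monoglyceride lipase of the last step, is not among the genes in the NK table.

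**Figure D3:**
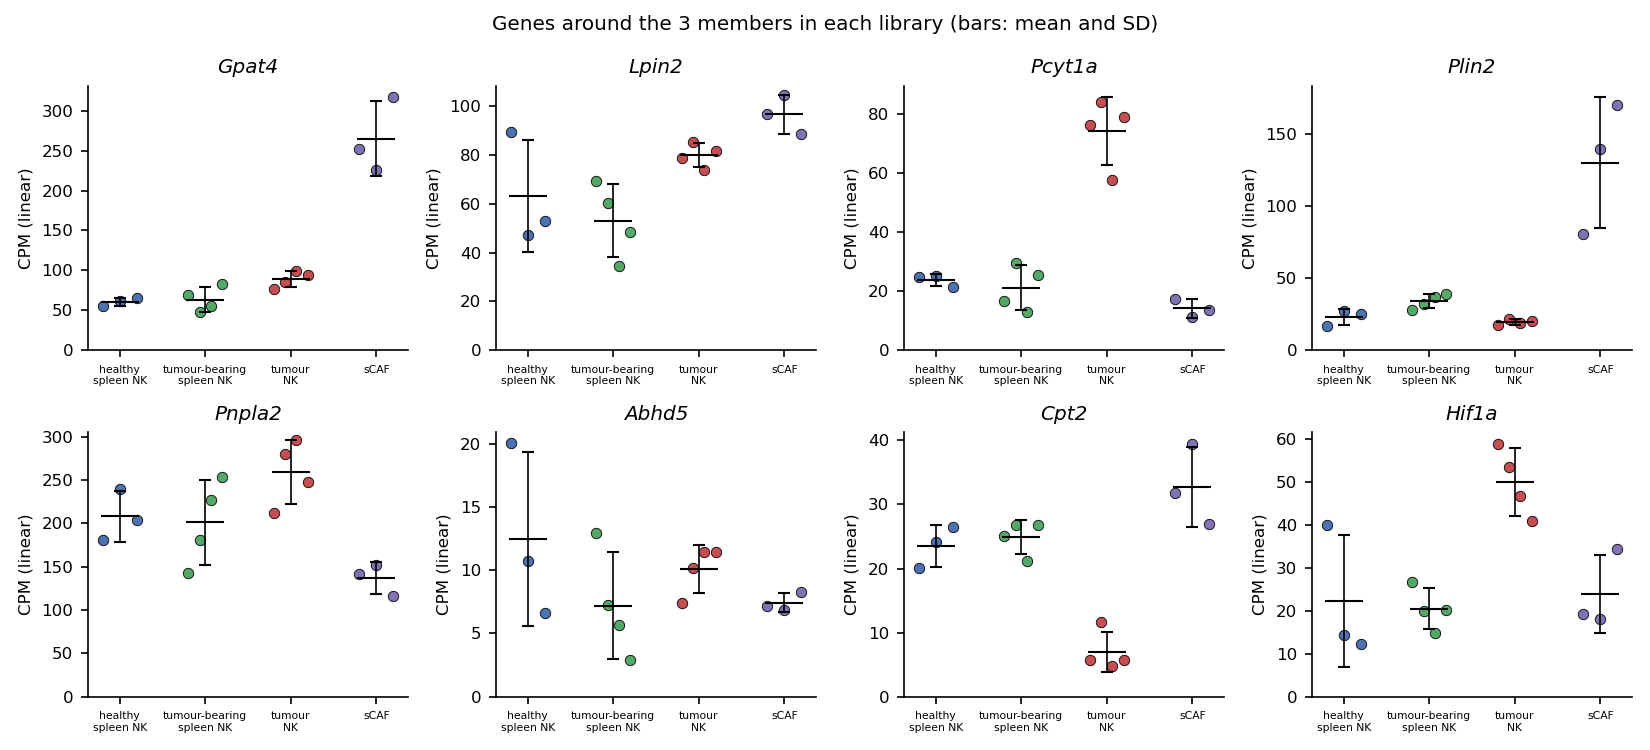
Levels in CPM (linear axes, from 0) of 8 genes around Dgat1, Hilpda and G0s2 in each library of the 4 groups, with mean and SD as bars. Pcyt1a and Hif1a are higher in all 4 tumour NK libraries than in every spleen library, Cpt2 and Plin2 are lower than in every tumour-bearing spleen library, and Pnpla2 and Abhd5 overlap.

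The list of fatty acid uptake and activation gave different counts against each spleen. Of 22 genes 7 were tested, with 1 higher (14.3%, beside 15.8% of all genes) and a median of 0.07 against tumour-bearing spleen. Against healthy spleen 4 of the 7 were higher (57.1%, beside 16.5% of all genes), with a median of 0.61. They were Fabp5 by 2.63, Acsl4 by 1.08, Acot7 by 0.70 and Acot9 by 0.61 (edgeR adjusted p = 0.00107, 0.0292, 0.00231 and 0.0421). Acot7 and Acot9 encode acyl-CoA thioesterases and not enzymes of uptake or activation. Of the 4 genes, 3 were called in tumour NK against healthy spleen alone. Whether the 2 differences themselves differ was not tested. Against tumour-bearing spleen Acsl4, which activates polyunsaturated fatty acids, rose by 1.10 (edgeR adjusted p = 0.0129). Of 28 genes of fatty acid oxidation 22 were tested. Against tumour-bearing spleen 3 were higher (13.6%) and 1 lower (4.55%), beside 15.8% and 13.2% of all genes, with a median of -0.01. Cpt2, the inner-membrane carnitine palmitoyltransferase, fell from 25.1, 26.8, 21.1 and 26.8 CPM in tumour-bearing spleen to 5.74, 11.6, 4.81 and 5.7 CPM in tumour NK. Its difference of -1.94 (SE 0.28, edgeR adjusted p = 2.21e-05) had the opposite sign to that of Slc25a20, the carnitine-acylcarnitine carrier, which rose by 0.83 (edgeR adjusted p = 0.00691). Etfdh and Acadl, enzymes of the same route, rose by 0.74 and 0.40 (edgeR adjusted p = 0.0093 and 0.0384). Against healthy spleen 1 oxidation gene was higher, Slc25a20, and 1 lower, Cpt2, with a median of -0.11. That is 4.55% each, beside 16.5% and 14% of all genes, and neither Etfdh nor Acadl was called there.

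Of 24 genes of fatty acid synthesis 15 were tested. Against tumour-bearing spleen 3 were higher and 3 lower (20% each, beside 15.8% and 13.2% of all genes), with a median of 0.11. Against healthy spleen 3 were higher and 3 lower (20% each, beside 16.5% and 14%), with a median of -0.07. Scd2, a desaturase that makes oleate, rose from 26.0 ± 5.43 to 90.0 ± 16.3 CPM (SD, n = 4 each; log2 1.78, edgeR adjusted p = 4.34e-07). Hacd3 and Hsd17b12, of fatty acid elongation, rose by 0.79 and 0.54 (edgeR adjusted p = 0.00282 and 0.0156). Mcat, Tecr and Elovl1 fell by 0.86, 0.52 and 0.44 on the log2 scale (edgeR adjusted p = 0.0159, 0.018 and 0.0348).

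Among the transcription regulators, 17 of 25 were tested. Against tumour-bearing spleen 5 were higher (29.4%) and 1 lower (5.88%), beside 15.8% and 13.2% of all genes, with a median of 0.22. Against healthy spleen 5 were higher (29.4%) and 2 lower (11.8%), beside 16.5% and 14% of all genes, with a median of 0.17. Hif1a, whose product activates Hilpda, was at 26.7, 20.1, 14.9 and 20.3 CPM in tumour-bearing spleen and at 59.0, 53.6, 46.9 and 40.9 CPM in tumour NK, a rise of 1.30 (SE 0.27, edgeR adjusted p = 0.00136). Healthy spleen gave 40.1, 14.4 and 12.4 CPM of Hif1a, and its replicate 1 also had the highest Hilpda of that group. In tumour NK, replicate 4 had the lowest Hif1a, at 40.9 CPM, and the highest Hilpda, at 456.4 CPM. In tumour-bearing spleen Hif1a was highest in replicate 1 and Hilpda in replicate 2. Epas1, encoding the HIF-2 subunit, rose by 2.34 and Cebpb, a factor of fat cell differentiation, by 2.64 (edgeR adjusted p = 3.75e-05 and 2.58e-09), and Mlx, a partner of the glucose-sensing factors, fell by 0.63 on the log2 scale (edgeR adjusted p = 0.0015). Ppard, a fatty acid receptor, had 0.25 (edgeR adjusted p = 0.431).

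In the hypoxia list 7 of 17 tested genes rose (41.2%, beside 15.8% of all genes) and none fell against tumour-bearing spleen, with a median of 0.51, and 9 of 17 rose against healthy spleen (52.9%, beside 16.5%). Vegfa, the growth factor of blood vessels, rose by 4.48 (SE 0.29), Bhlhe40, a repressor, by 2.47 and Ankrd37 from 2.68 to 11.6 CPM (edgeR adjusted p = 3.85e-09, 2.2e-09 and 0.00019). Over all the lists, 186 genes were named, 131 were listed in the NK table and 108 tested, of which 25 rose and 8 fell against tumour-bearing spleen, and 27 rose and 8 fell against healthy spleen. Against tumour-bearing spleen that is 23.1% higher and 7.41% lower, beside 15.8% and 13.2% of all genes, with a median of 0.19. With upper-quartile scaling, which takes the median of all genes from 0.0014 to -0.098 on the log2 scale, the calls against tumour-bearing spleen were 20 higher and 14 lower, and 41.6% of all calls in the table were higher in place of 54.5%. Against healthy spleen the same scaling took that share from 54.2% to 42.4% and the lists' calls to 25 higher and 9 lower. Between the spleens, 2 list genes rose in tumour-bearing mice, Acot7 by 0.80 and Ldha by 0.55 (edgeR adjusted p = 0.00913 and 0.048), and none fell. Both calls were lost under some of the 15 alternatives.

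**Figure D4:**
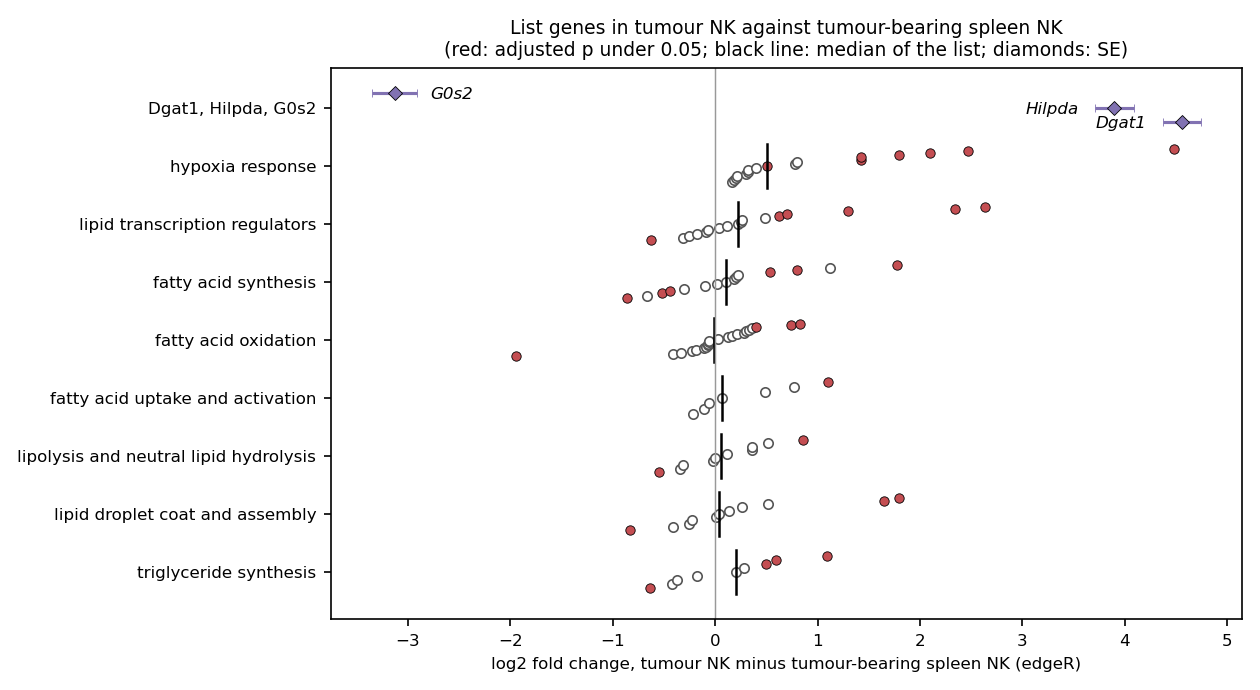
Log2 fold change of each tested list gene in tumour NK minus tumour-bearing spleen NK (edgeR), by list, with red points for an adjusted p under 0.05, open points otherwise and a black line at the list's median. Diamonds give Dgat1 at 4.56, Hilpda at 3.90 and G0s2 at -3.13 with the SE, outside nearly all list genes, while the medians run from -0.01 for oxidation to 0.51 for hypoxia.

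The genes whose log2 CPM ran most like each of the 3 over the 11 NK libraries are given as a measure of likeness (Pearson's r). All of these r values rest mainly on the gap between the 4 tumour libraries and the 7 spleen libraries, and libraries of a group share tissue and handling. For Dgat1 they were Gpr132 (r = 0.994), Neurl3 (0.992), Nfkbia (0.991), Hilpda (0.991) and Nrp1 (0.99). For Hilpda they were Gcnt2 (0.993), Gzme (0.991), Bhlhe40 (0.991), Dgat1 (0.991) and Ly6a (0.991). For G0s2 they were Pdgfb (0.994), Tbc1d10c (0.992), Tspan32 (0.983), Zdhhc12 (0.981) and S1pr5 (0.979). S1pr5, a receptor for sphingosine 1-phosphate, averaged 366.9 CPM in tumour-bearing spleen and 43.6 CPM in tumour NK. G0s2 ran against Dgat1 (r = -0.977) and Hilpda (r = -0.981). An r above 0.95 was common, with 209 genes for Dgat1, 227 for Hilpda and 68 for G0s2. Within tumour NK the 3 genes did not share an order, since replicate 1 had the lowest Dgat1 and the second highest Hilpda.

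Of the genes within the neighbourhood of Dgat1 and G0s2, the tested ones are given here, and no neighbour of Hilpda was tested. Hsf1, the heat shock factor whose 3′ end lies 102 bases from that of Dgat1 on the other strand, fell from 112.9 to 73.5 CPM (log2 -0.60, SE 0.15, edgeR adjusted p = 0.00384) while Dgat1 was higher. Bop1 and Fbxl6, within 24738 bases of Dgat1, had -0.13 and 0.10, and Mroh1, at 48977 bases, had -0.19 (edgeR adjusted p = 0.548, 0.774 and 0.447). Hsd11b1, 8086 bases from G0s2, had -0.26, with the sign of G0s2 (edgeR adjusted p = 0.176).

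Some lists of markers of other cells were higher in tumour NK than in spleen, and others were not. The neutrophil list, of which 7 of 14 genes were listed, summed to 70.5 to 205.8 CPM in tumour NK and to 1.45 to 14.9 CPM in tumour-bearing spleen, with 2.14 to 7.70 CPM in healthy spleen, and was highest in tumour replicate 2, where S100a9 was at 111.6 CPM. Dgat1, Hilpda and G0s2 in that library were 1890, 346.3 and 15.9 CPM, of which G0s2 was the highest and the others lay within the range of the other 3. Macrophage genes, 10 of 15 listed, summed to 1609 to 1982 CPM in tumour NK and to 834 to 1418 CPM in tumour-bearing spleen and 1165 to 1523 CPM in healthy spleen. Nearly all of that sum is Ly6c2 and Ccr2, which spleen NK libraries also held and which were not called (edgeR adjusted p = 0.774 and 0.299). The other 8 macrophage genes summed to 45.9, 56.5, 258.5 and 44.7 CPM in tumour NK and to 17.5, 20.1, 28.8 and 26.8 CPM in tumour-bearing spleen, with Apoe at 105.2 CPM in tumour replicate 3. Carcinoma genes, 2 of 9 listed, summed to 27.7 to 54.9 CPM in tumour NK and to at most 3.08 CPM in a spleen library. Most of that was Cdh1, at 26.5 to 47.5 CPM in tumour NK. Krt8 and Krt18 were not among the genes in the NK table, and of 10 adipocyte markers only Lipe was listed. Pecam1, the 1 endothelial gene listed, was at 139.1 to 201.6 CPM in tumour NK and 74.8 to 94.2 CPM in tumour-bearing spleen. T cell genes summed to 833.2 to 906.1 CPM in tumour NK, below the 1063 to 1393 CPM of tumour-bearing spleen. They overlapped the 896.8 to 1187 CPM of healthy spleen. Nearly all of that sum is Lck, at 755.8 to 841.4 CPM in tumour NK. Cd3d fell by 0.65 on the log2 scale against tumour-bearing spleen and rose by 0.82 against healthy spleen (edgeR adjusted p = 0.0325 and 0.0287). Dendritic cell genes lay at 178.2 to 247.7 against 245.4 to 323.8 CPM in tumour-bearing spleen and 149.47 to 177.45 CPM in healthy spleen. Nearly all of that sum is Itgax, while Zbtb46, the other gene listed, rose by 1.76 against tumour-bearing spleen (edgeR adjusted p = 0.00058). B cell and fibroblast sums overlapped, though Col1a2 of the fibroblast list rose by 1.16 against tumour-bearing spleen (edgeR adjusted p = 0.0468). The part of such cells in the levels of the 3 genes was not tested. Leaving out tumour replicate 2 or any other library kept Dgat1 between 4.44 and 4.68, Hilpda between 3.77 and 4.02 and G0s2 between -3.29 and -2.98 against tumour-bearing spleen.

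In the sCAF libraries the 3 genes had another balance, given beside the NK levels with no comparison, since the 2 tables were scaled separately. Hilpda stood at 47.5, 75.1 and 123.1 CPM, a mean of 81.9 ± 38.3 (SD, n = 3), and Dgat1 at 37.2, 37.2 and 33.0 CPM, a mean of 35.8 ± 2.4 (SD, n = 3). G0s2 had 0, 2 and 0 counts, below the limit of 3 counts that a count of 0 allows, so it was not detectable at this depth. Hilpda thus made up 100%, 98.0% and 100% of the summed inhibitor counts. Dgat1 varied little among these libraries and Hilpda by 2.59 times.

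Of the genes around them that the NK table does not hold, Dgat2 averaged 6.03 ± 1.55 CPM, Gpat3 12.6 ± 4.58 CPM, Fitm2 1.66 ± 1.05 CPM and Mgll 2.25 ± 1.97 CPM (SD, n = 3 each). Plin2 was at 80.7, 139.6 and 169.7 CPM, lowest in replicate 1 and highest in replicate 3 as Hilpda was. The summed adipocyte markers, 6 of 10 listed, had that order too, at 45.7, 79.7 and 96.1 CPM. Of these Fabp4, at 8.52, 16.7 and 51.8 CPM, and Cfd followed it, while Lipe, Cidec, Plin4 and Adipoq did not. Among fibroblast markers Dcn, at 39.9, 104.7 and 146.4 CPM, Col1a1, Col1a2, Col3a1, Postn and Pdpn had that order. Pdgfra, at 61.4, 40.2 and 84.8 CPM, did not, nor did Pdgfrb, Col5a1, Lum, Acta2 and Fap. The share of all genes with this order was not counted, so nothing is read from it. Pnpla2 was at 141.2, 152.5 and 116.4 CPM, which gives 0.337, 0.502 and 1.06 inhibitor counts per Pnpla2 count. The 12 fibroblast markers were all listed and summed to 571.6 to 1412 CPM. All 9 carcinoma markers were listed too and summed to 3434 to 4481 CPM, with the keratin gene Krt18 at 2300, 2993 and 2250 CPM, in cells sorted as EPCAM- and GFP-. Of the neutrophil markers 12 of 14 were listed, at a summed 1386 to 2062 CPM, of which Lcn2, also an epithelial gene, made 1202, 1179 and 1563 CPM. How far such RNA enters the sCAF levels was not tested.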

How the data were processed

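The 14 libraries were 3′ end RNA-seq of mouse NK cells (3 healthy spleen, 4 tumour-bearing spleen, 4 tumour) and sCAF (3). The authors deposited raw counts per gene, 1 table for NK cells (10210 genes, each with a count of at least 6 in some library) and 1 for sCAF (12235 genes). bcl2fastq, STAR 2.4.2a, HTSeq and the build mm10 are named in the submitters' processing notes; the annotation, strand setting and use of molecular identifiers are not given in the sources used here. In both headers a run of spaces stands for a tab, and names were taken in the order in which they stand.

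The NK counts were fitted over all 11 libraries with edgeR 4.0.16 (R 4.3.3), with filterByExpr (8471 genes kept), TMM factors and the robust quasi-likelihood test on group alone, and p-values were adjusted by Benjamini-Hochberg over all genes tested (threshold 0.05). The SE is the size of the log2 fold change divided by the square root of the F statistic. The scripts were tested on simulated data. DESeq2 1.42.0, other scalings, no filter, left-out libraries, the replicate number and the split of spleen libraries as blocks were alternatives. The labels call replicates independent without naming mice, so p-values measure the spread between these libraries. sCAF counts were tested against nothing. Gene positions are from GENCODE M21, and promoter windows are RefSeq's, held for 2 of the 3 genes.

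The 3 genes and the lists were chosen with earlier results of these data known, and the list genes' calls are not independent support. Genes named are the 3 and their direct partners whatever their value. Also named are up to 3 highest and 3 lowest called genes of each list. To these come the 5 genes most alike in each case without Gm or Rik names. Hsf1 and other neighbours were chosen by position. Acot7, Acot9, Fabp5, Vmp1 and Ldha were named after their values were seen. So were markers of other cells, among them Ly6c2, Ccr2, Apoe, S100a9, Cdh1, Pecam1, Krt18, Lcn2, Fabp4 and Dcn. Others were Lck, Cd3d, Itgax, Zbtb46 and the other adipocyte and fibroblast markers.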

Additional observations from a re-analysis of the deposited data

How the results depend on the processing

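The 3 genes were chosen on their difference between tumour and spleen, so their values under the 17 alternatives against tumour-bearing spleen and the 16 against healthy spleen are a description. Dgat1 ran from 4.30 to 4.83 on the log2 scale against tumour-bearing spleen and from 4.09 to 4.40 against healthy spleen, Hilpda from 3.71 to 4.07 and from 3.37 to 4.18, and G0s2 from -3.33 to -2.95 and from -3.75 to -3.21. The direction of Hilpda between the spleens was not stable: from 0.06 it became -0.0599 with the split of spleen libraries as a block, and it ran from -0.105 to 0.309 as 1 library was left out. The cause was not tested.

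The counts of genes called were 2453 against tumour-bearing spleen, 2582 against healthy spleen and 134 between spleens, and of list genes 33, 35 and 2. With tumour-bearing replicates 1 and 2 alone the first fell to 1495 and 21 and with healthy replicate 1 alone the second to 1099 and 12. The other spleen libraries gave more, 2814 and 42 with tumour-bearing replicates 3 and 4 and 2971 and 39 with healthy replicates 2 and 3. The cause was not tested. The split as a block gave 691 and 7 between spleens. For list genes between spleens, DESeq2 size factors, no filter on low counts and a fit of only the groups compared each gave 1. Leaving out 1 library gave 1869 to 2509, 1838 to 2971 and 42 to 125 genes, and 22 to 36, 25 to 39 and 0 to 1 list genes, with 42 without healthy replicate 2 and 67 without healthy replicate 3. Of the 33 and 35 list genes called against the spleens, 18 and 10 kept their call under every alternative and none reversed.

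Correlations of same-numbered libraries were -0.0471, 0.288, 0.00249 and 0.211 for tumour and tumour-bearing spleen, -0.186, -0.195 and 0.0445 for tumour and healthy spleen, and 0.501, -0.353 and 0.348 between spleens. Not every pair in a comparison was above 0.1, so the numbers were not taken as pairing. With the replicate block the calls were 2820, 1467 and 167, and 40, 22 and 2 list genes. Without the block the same libraries, a setting added after seeing the data, gave 2509, 1976 and 55, and 36, 28 and 0 list genes. The block left Dgat1 at 4.55, Hilpda at 3.86 and G0s2 at -3.15 against tumour-bearing spleen.

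Of the 3 genes, G0s2 had the fewest counts, with 10 to 13 counts in each tumour library and at most 2 in sCAF.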
